A study of Homo sapiens with 8 samples.

Results

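The enzymes and partners that write, copy and erase CpG methylation are themselves encoded by genes with methylated bodies, and 8 of them are described here: DNMT1, UHRF1, DNMT3A, DNMT3B, DNMT3L, TET1, TET2 and TET3. The members are all CpGs listed from 5 kb before to 5 kb after the hg19 span of each gene, which gave 2079 of the 3209182 CpGs listed in any library. Within 1 kb of the gene start on either side lay 492 of them, called the start region, and 1380 lay in the remaining span, called the body. Another 81 lay upstream and 126 downstream. The spans were chr19:10244022-10305755 for DNMT1, chr19:4909510-4962165 for UHRF1, chr2:25455830-25565459 for DNMT3A, chr20:31350191-31397162 for DNMT3B and chr21:45666222-45682099 for DNMT3L. Those of the TET genes were chr10:70320117-70454239 for TET1, chr4:106067032-106200973 for TET2 and chr2:74273405-74335302 for TET3. DNMT1, DNMT3A and DNMT3L lie on the minus strand and the other genes on the plus strand.

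The DNA came from HUES64, an established human embryonic stem cell line, whose genotype is labelled DNMT1 knockout. Each of the 8 groups is 1 day of a course of DNMT1* withdrawal, from day 0 to day 7, and each has 1 library. DNMT1* is an exogenous copy of the enzyme on which a line without the endogenous enzyme depends, and all days share the knockout. Reduced representation bisulfite sequencing (RRBS) counts methylated and unmethylated reads at CpGs near MspI cut sites (CCGG), so a level is a mean over all cells of the sample. The files hold 1 such course, and p-values of trends over days do not cover variation between courses.

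DNMT1 copies methylation from the old DNA strand to the new one after replication, and UHRF1 recognises hemimethylated CpGs and recruits DNMT1 to them. DNMT3A and DNMT3B add methylation to unmethylated CpGs, and DNMT3L is a partner without catalytic activity that stimulates them. TET1, TET2 and TET3 oxidise 5-methylcytosine, the first step of active demethylation; bisulfite reads cannot tell 5-methylcytosine from 5-hydroxymethylcytosine.

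Read calls at CpGs numbered 77691782 to 161534152 in the 5 deep libraries (days 0, 1, 2, 6 and 7) and 12359218 to 15156251 in the 3 shallow ones (days 3 to 5). A CpG was matched if every deep library gave it 10 or more reads and every shallow one at least 1, and every day was averaged over the same matched CpGs, each weighted equally. Of the members, 1468 were matched, or 70.6%, with 342 in start regions and 966 in bodies. At matched autosomal CpGs the median was 52 reads on day 0 and 4 to 5 reads on days 3 to 5, so single values of those 3 days are coarse. Intervals are Wilson 95% intervals over reads, the limit behind a share of 0 is 3 reads, and both cover counting error only. RRBS reads are not independent molecules. The DNMT1 knockout label cannot be checked in these data, since CpG methylation at DNMT1 does not read the mutation.

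The promoters are shown first because the start regions differ from the bodies in methylation. They are given as the 250 bases before RefSeq start sites (GRCh38.p14, 5′ to 3′ on the gene's strand) with every CpG in capitals. All coordinates other than those of these sequences are hg19. Promoters were set on the hg19 positions by the spacing of their CpGs, which needed at least 10 matches and no listed CpG without one. The first sequence belongs to DNMT1 (chr19:10194954-10195203, minus strand), the second to a start site inside DNMT3A (chr2:25252316-25252565, minus strand), and the third to UHRF1 (chr19:4909894-4910143, plus strand). The fourth belongs to TET2 (chr4:105146626-105146875, plus strand) and the fifth to TET3 (chr2:73984660-73984909, plus strand). The start sites of the printed UHRF1 and TET2 sequences fell 646 and 1001 bp inside the spans used here, so both sequences lie within those spans.
DNMT1: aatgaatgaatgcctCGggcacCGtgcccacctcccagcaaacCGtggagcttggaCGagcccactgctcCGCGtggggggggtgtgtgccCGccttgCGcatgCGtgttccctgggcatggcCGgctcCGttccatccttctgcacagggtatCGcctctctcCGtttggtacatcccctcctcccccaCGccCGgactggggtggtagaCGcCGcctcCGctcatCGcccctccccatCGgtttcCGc
DNMT3A internal: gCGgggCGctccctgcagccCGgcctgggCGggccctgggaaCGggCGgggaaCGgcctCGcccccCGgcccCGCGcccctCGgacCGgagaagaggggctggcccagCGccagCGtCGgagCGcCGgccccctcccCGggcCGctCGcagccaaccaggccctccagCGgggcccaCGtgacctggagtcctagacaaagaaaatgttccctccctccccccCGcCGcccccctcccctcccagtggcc
UHRF1: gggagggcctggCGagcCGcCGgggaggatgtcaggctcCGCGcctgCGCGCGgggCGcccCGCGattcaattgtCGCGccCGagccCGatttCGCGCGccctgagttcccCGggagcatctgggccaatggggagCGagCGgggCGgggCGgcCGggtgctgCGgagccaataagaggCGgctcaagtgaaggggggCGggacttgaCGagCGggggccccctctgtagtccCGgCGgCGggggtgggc
TET2: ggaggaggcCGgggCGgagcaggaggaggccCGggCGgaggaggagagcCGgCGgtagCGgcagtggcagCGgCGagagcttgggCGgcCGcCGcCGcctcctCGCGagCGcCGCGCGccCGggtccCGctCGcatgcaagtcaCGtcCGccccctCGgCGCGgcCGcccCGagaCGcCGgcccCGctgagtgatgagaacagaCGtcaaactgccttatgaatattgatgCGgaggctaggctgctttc
TET3: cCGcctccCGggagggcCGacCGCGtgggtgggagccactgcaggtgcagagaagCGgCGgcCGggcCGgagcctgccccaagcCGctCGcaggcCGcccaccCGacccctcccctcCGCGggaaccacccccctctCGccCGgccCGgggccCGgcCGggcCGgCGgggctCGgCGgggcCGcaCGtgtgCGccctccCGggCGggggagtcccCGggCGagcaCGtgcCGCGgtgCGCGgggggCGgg
The 2-base motif CG, which reads the same on both strands, occurred 21 times in the DNMT1 sequence, 25 times in the internal DNMT3A sequence, 32 times in UHRF1, 34 times in TET2 and 37 times in TET3. The median over 35116 RefSeq promoter entries of the same length was 11, and 93.9% of them held at least one. The MspI motif CCGG, also the same on both strands and containing a CG, occurred 2, 5, 4, 5 and 10 times in the sequences in the order printed, and at least once in 58.5% of all entries. By spacing, 12, 19, 25 and 26 listed CpGs fell in the DNMT1, internal DNMT3A, UHRF1 and TET2 sequences. Of these, 11, 13, 24 and 12 were read on every day. All the listed CpGs of each sequence together held, in that order, 0 methylated reads of 750, 823, 1395 and 1054 on day 7. On day 0 they held 1 of 867, 0 of 866, 2 of 1828 and 0 of 1168. The CpGs read in these 4 promoters were thus almost free of methylation before and after withdrawal. The TET3 sequence could not be placed in the TET3 window. RefSeq gives TET3 a length of 151868 bp, against 61898 bp for the span used here, so the start of that span is not the start of the longest annotated TET3 transcript. Of 18 promoter entries for 7 of the genes, 7 could be placed.

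**Figure D1:**
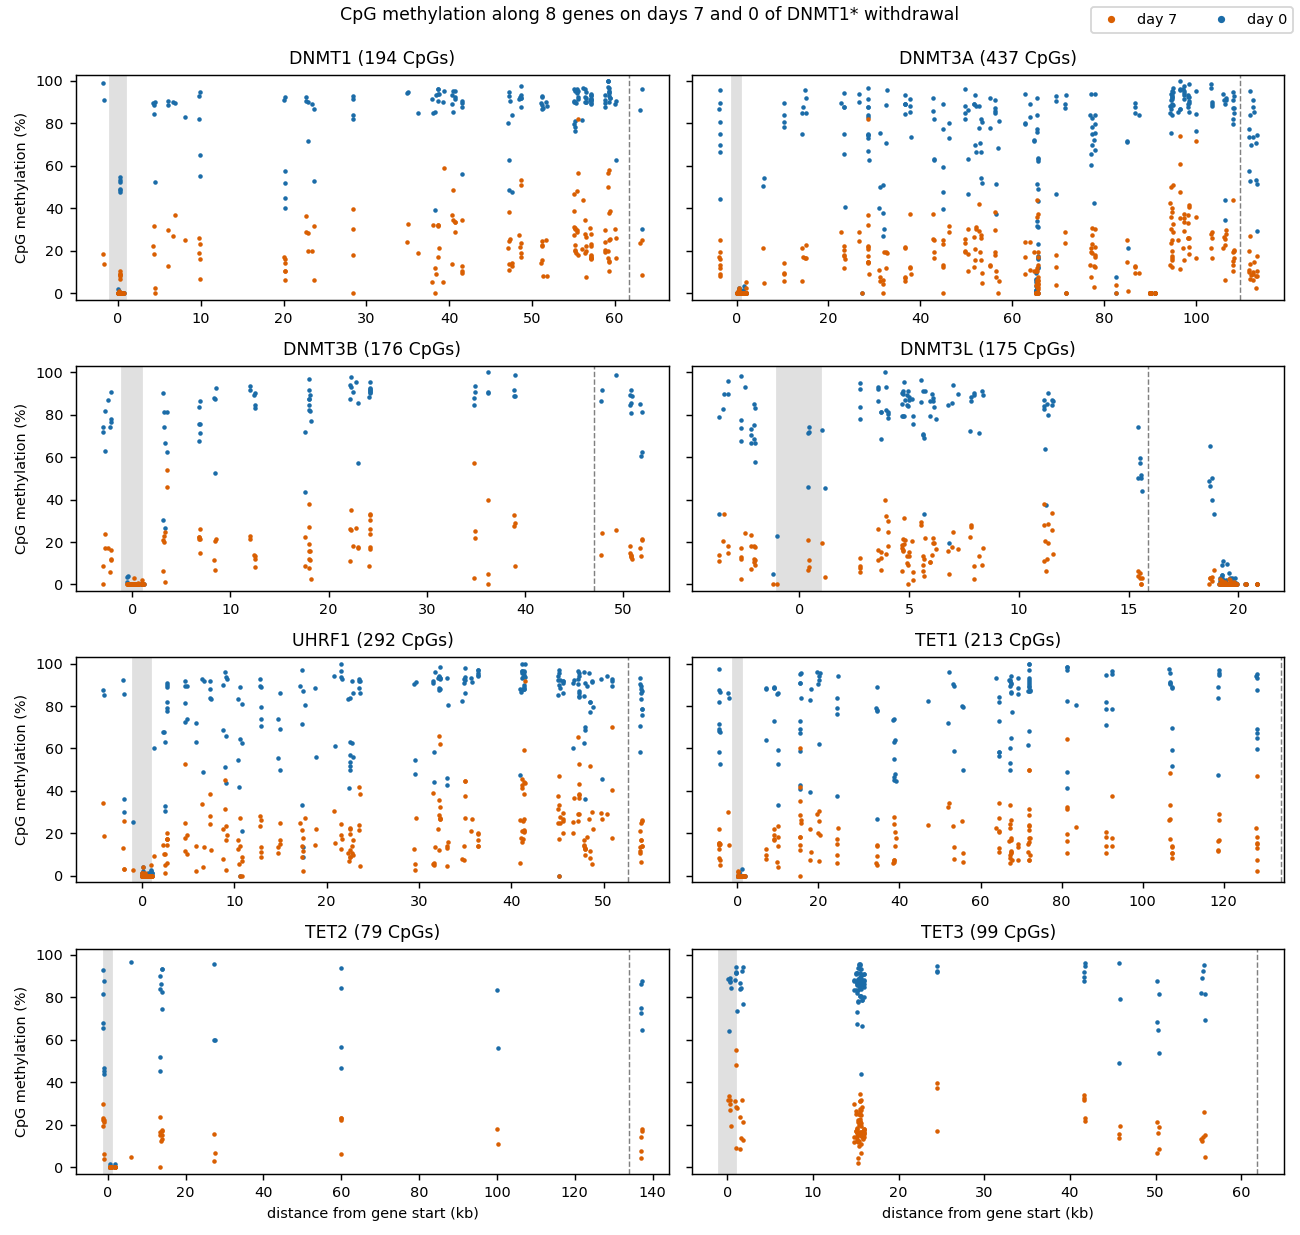
CpG methylation in percent against distance from the gene start in kb for CpGs read 10 times or more on days 0, 1, 2, 6 and 7, on day 7 (orange) and day 0 (blue). The grey band marks the start region, 1 kb on either side, and the dashed line the gene end. Start regions of DNMT1, UHRF1, DNMT3A, DNMT3B, TET1 and TET2 hold CpGs near 0% on both days, while bodies, and the start of the TET3 span, hold high CpGs on day 0 and lower ones on day 7.

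Start regions and bodies were compared first. At matched CpGs, the start regions of UHRF1, DNMT3A, DNMT3B, TET1 and TET2 stayed near 0% on every day, and DNMT1 had a small methylated patch. The start of the TET3 span was highly methylated on day 0 and fell. Of the 342 matched start CpGs, 324 were at 20% or less and 9 were at 80% or more in the pooled reads of days 0 and 1. Among the matched body CpGs, 562 were at 80% or more and 147 at 20% or less.

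The UHRF1 start region (72 CpGs) averaged 0.504%, 0.476%, 0.347%, 0.694%, 0%, 0%, 0.135% and 0.222% on days 0 to 7. That of DNMT3A (59 CpGs) averaged 0.101%, 0.453%, 0.119%, 0.339%, 0.282%, 0.17%, 0.119% and 0.0269%. In DNMT3B (67 CpGs) the means lay between 0% and 1.49%, in TET1 (52 CpGs) between 0% and 0.641%, and in TET2 (28 CpGs) between 0% and 0.0567%. The highest of these means, that of DNMT3B on day 4, came from a shallow library. None of the 5 trends passed the adjusted threshold of 0.05, which does not show that they had none.

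A few CpGs of the start regions, all before the start, carried methylated reads and are named after their values were seen. In UHRF1, 11 of 4126 start reads were methylated on day 7, or 0.267% (0.149 to 0.477%), and 8 of 4149 on day 6, or 0.193% (0.0977 to 0.38%), against 38 of 5188 on day 0, or 0.732% (0.534 to 1%). One matched CpG 959 bp before the UHRF1 start gave 3 of 104 methylated reads on day 7, against 30 of 119 on day 0, and so most of the methylated reads of day 0. The UHRF1 CpGs 656 and 362 bp before the start had too few reads to be matched. They gave 5 of 11 and 0 of 6 methylated reads on day 7, against 8 of 14 and 2 of 5 on day 0. In DNMT3A, a pair of CpGs 817 and 840 bp before the start had too few reads to be matched, with 1 of 11 and 2 of 13 reads methylated on day 7, against 8 of 8 and 6 of 8 on day 0. With 5 reads as the minimum, 62 CpGs entered the DNMT3A start mean and its slope was -0.449 points per day (exact permutation, adjusted p = 0.0609), against -0.0249 over 59 CpGs.

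These stretches of low methylation reached different distances. With at least 10 reads on day 0, the first CpG at 50% or more in DNMT3A lay 3532 bp before the start on one side and 5796 bp into the gene on the other. For TET1 these distances were 2186 and 7023 bp, for TET2 1045 and 5921 bp, for DNMT3B 2197 and 3128 bp, and for UHRF1 656 and 1288 bp. The UHRF1 stretch was thus the shortest of the 5 by this measure. Its edge before the start rests on a single unmatched CpG, with 8 of 14 reads methylated on day 0 and 1 of 5 on day 1. CpGs with fewer than 10 reads on day 0 do not enter the measure, among them the pair before the DNMT3A start. RRBS reads only CpGs near MspI sites, so the true edges may lie closer to the start. Between those limits in UHRF1, 8 of 4163 reads were methylated on day 7, against 10 of 5273 on day 0. In DNMT3A the counts were 5 of 6296 reads on day 7 and 8 of 5957 on day 0.

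The DNMT1 start region (53 CpGs) averaged 5.84%, 4.7%, 4.8%, 4.31%, 0.377%, 0%, 1.25% and 0.991% on days 0 to 7. Its methylation sat in 6 neighbouring CpGs 227 to 259 bp inside the gene (chr19:10305496-10305528). In these, 211 of 413 reads were methylated on day 0, or 51.1% (46.3 to 55.9%). The share was 40.5% of 131 reads on day 1, 42.4% of 321 on day 2, 37.8% of 82 on day 3, 3.7% of 27 on day 4, 0% of 6 on day 5, 11.1% of 297 on day 6 and 8.52% of 270 on day 7. The patch was therefore near the middle of the scale on day 0 and low on days 6 and 7. Single CpGs ranged from 47.9% to 54.9% on day 0 and from 6.67% to 10.3% on day 7. They lie within the reach of single reads and are not independent of each other. On either side the DNA was unmethylated: 0 of 1733 reads in 25 CpGs on the inner side and 2 of 1603 reads in 23 CpGs on the outer side on day 0. The patch lay downstream of the printed DNMT1 promoter, whose start site fell 126 bp inside the span.

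**Figure D2:**
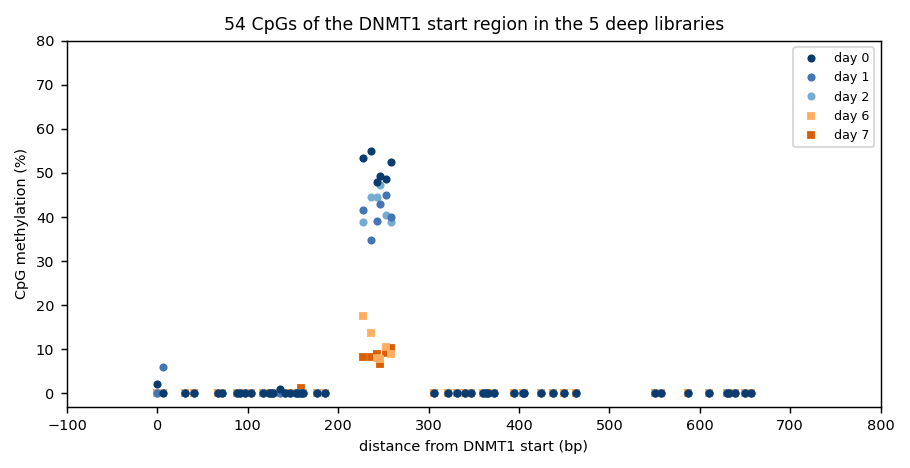
Methylation in percent of single CpGs of the DNMT1 start region against distance from the start in bp, in the 5 deep libraries. A cluster of 6 CpGs between 227 and 259 bp stands at 47.9% to 54.9% on day 0 and at 6.67% to 10.3% on day 7, and the CpGs on both sides lie near 0%.

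The DNMT1 start mean fell by 0.828 ± 0.196 points per day (SE, n = 8 libraries; exact two-sided permutation over days, adjusted p = 0.017 over 30 trends). The call was lost when reads were pooled (adjusted p = 0.112), without day 0 (adjusted p = 0.0752, both by exact permutation) and when 3 reads were asked for on each shallow day. The last setting removed the 6 CpGs and left a slope of 0.000424 points per day. None of the 10 matched CpGs at the TET3 start was at 20% or less on days 0 and 1. They averaged 86.7%, 85.5%, 71.6%, 41%, 29%, 55.6%, 24.6% and 29.6% on days 0 to 7 and fell by 9.1 ± 2.13 points per day (exact permutation, adjusted p = 0.0141). This call too was lost without day 0 (adjusted p = 0.0516) and with a start of 500 bp, which left 6 CpGs (adjusted p = 0.0874, both by exact permutation). DNMT1 and TET3 were the 2 of 7 start regions called as falling, where 32.6% of 2-kb windows at 20% or less on day 0 elsewhere on the autosomes fell at an exact p below 0.05, and 89% of all 2-kb windows. DNMT3L had a single matched start CpG and was not tested. Over all its 13 listed start CpGs, 29 of 251 reads were methylated on day 7, or 11.6%, against 136 of 232 on day 0, or 58.6%.

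The trend of the start-minus-body difference was fitted as well. Starts near 0% on day 0 had no room to fall, so in most of these genes it restates the slope of the body, and no such difference was computed for other genes, so the count of genes is not particular to these. The difference narrowed by 9.07 ± 0.81 points per day in DNMT1, 8.94 ± 0.69 in UHRF1, 5.79 ± 0.58 in DNMT3A, 8.54 ± 1.12 in DNMT3B, 8.65 ± 0.71 in TET1 and 7.66 ± 1.05 in TET2 (SE, n = 8 libraries). In all 6 the exact permutation p was at most 9.9e-05, with an adjusted p of at most 0.000186. In TET3, the gene with room to fall at both, the start-minus-body difference moved by 1.38 ± 1.76 points per day (exact permutation, adjusted p = 0.516). With 10 start CpGs this does not show that start and body lost methylation alike.

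**Figure D3:**
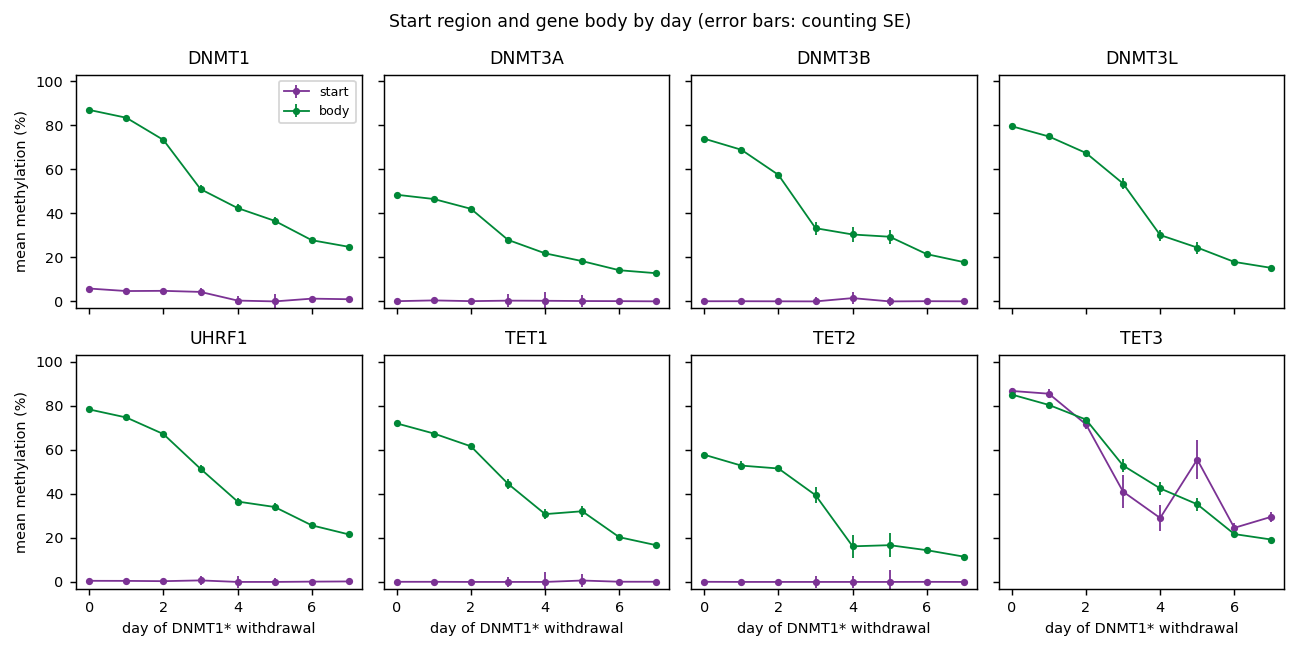
Mean methylation in percent of matched CpGs in the start region (purple) and the body (green) on each day of DNMT1* withdrawal, 1 library per day; error bars are the counting SE. Body means fall from day to day in most steps, start means stay low except in TET3, and DNMT3L has too few matched start CpGs to be drawn.

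All 8 bodies lost methylation, as did nearly all of the genome read: 99.9% of 25927 100-kb windows of the other autosomal CpGs fell at an exact p below 0.05. The DNMT1 body (126 CpGs) averaged 86.9%, 83.4%, 73.3%, 51%, 42.4%, 36.6%, 27.8% and 24.8% on days 0 to 7. The UHRF1 body (174 CpGs) averaged 78.3%, 74.7%, 67.1%, 51.4%, 36.5%, 34%, 25.7% and 21.6%. Both were lower on every day than on the day before, with the largest step from day 2 to day 3.

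Among the de novo methyltransferases, the DNMT3A body (308 CpGs) averaged 48.4%, 46.5%, 42%, 27.9%, 21.8%, 18.3%, 14.1% and 12.8% on days 0 to 7. The DNMT3B body (54 CpGs) averaged 73.9%, 68.8%, 57.4%, 33.2%, 30.4%, 29.4%, 21.4% and 17.8%. DNMT3A started lowest of the 8 bodies, since 122 of its 308 CpGs were at 20% or less, and 3 stretches of such CpGs are described further on. The DNMT3L body (77 CpGs) averaged 79.5%, 74.9%, 67.4%, 53.5%, 30.1%, 24.4%, 17.9% and 15.2%.

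For the TET genes, the TET1 body (129 CpGs) averaged 72%, 67.4%, 61.6%, 44.6%, 30.8%, 32.1%, 20.3% and 16.7% on days 0 to 7. The TET3 body (79 CpGs) averaged 85.1%, 80.4%, 73.7%, 52.9%, 42.5%, 35.3%, 21.7% and 19.2%. The TET2 body was thinly read, and its 19 matched CpGs averaged 57.7%, 52.8%, 51.5%, 39.4%, 16.2%, 16.7%, 14.4% and 11.5%. Among the 8 bodies, the steps from day 4 to day 5 in TET1 and TET2, between shallow libraries, were the only ones to run upward. The slopes of the 8 bodies ranged from -10.6 points per day in DNMT3L to -5.81 in DNMT3A, with an adjusted p of at most 0.000186 (exact permutation; 5e-05 is the smallest unadjusted p that 8 days allow). Over the 5 deep libraries alone all 8 were called as well, each at an exact permutation p of 0.0083, the smallest that 5 days allow. By the smallest root mean square difference over the 8 days, the course most like that of DNMT1 was TET3 (3.27 points), that most like UHRF1 was TET3 (4.77 points), and DNMT3B and TET1 were most like each other (4.49 points). DNMT3A and TET2 were each other's closest course at 6.94 points, and DNMT3L was closest to UHRF1 at 5.47 points.

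Body means mix CpGs that began high, intermediate and low. To compare rates, the body CpGs at 80% or more in the pooled reads of days 0 and 1 were set against the 922463 matched autosomal CpGs of the same class outside the 8 windows. The class limit uses days 0 and 1 on both sides alike. Highly methylated CpGs of UHRF1, DNMT1 and DNMT3A lost methylation more slowly than the rest. On day 7 they kept 29%, 29% and 26.7% of their day 0 level in that order, where the rest kept 20.9%. The other 5 genes did not pass this test.

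In UHRF1 (116 CpGs) the class stood at 91.2%, 86.8%, 78.6%, 59.1%, 42.9%, 39.7%, 31.4% and 26.5% on days 0 to 7. In DNMT1 (111 CpGs) it stood at 91%, 87.4%, 77.4%, 55.6%, 43.2%, 39.3%, 29.4% and 26.3%, and in the rest at 88.8%, 84.5%, 74.2%, 53.5%, 38.1%, 31.5%, 22.2% and 18.6%. Both genes began close to the rest and ended well above it. As ratios to the rest, UHRF1 was at 1.03, 1.03, 1.06, 1.1, 1.13, 1.26, 1.41 and 1.42 on days 0 to 7, and DNMT1 at 1.02, 1.03, 1.04, 1.04, 1.13, 1.25, 1.32 and 1.42. The ratio thus opened mainly after day 3. DNMT3A (122 CpGs) had ratios of 0.999, 1.01, 1.02, 0.973, 1.05, 1.09, 1.21 and 1.27, with the excess seen from day 4 on.

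**Figure D4:**
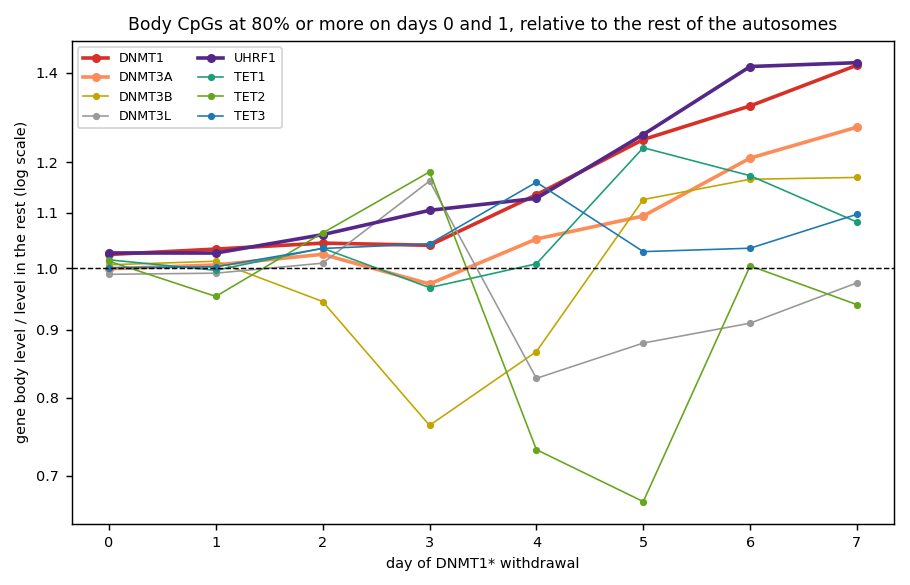
Ratio of the mean level in highly methylated body CpGs of each gene to that in the rest of the autosomes, on a log axis, against day of withdrawal, 1 library per day. UHRF1 and DNMT1 reach 1.42 and DNMT3A 1.27 on day 7 (thick lines), while the other 5 genes cross or stay closer to 1 and scatter most on the shallow days 3 to 5.

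The log slope minus that of the rest was 0.0528 ± 0.0068 per day in UHRF1, 0.0492 ± 0.0071 in DNMT1 and 0.0345 ± 0.0078 in DNMT3A (SE, n = 8 libraries). Adjusted p was 0.000186, 0.000186 and 0.00551 in that order (exact two-sided permutation over days, adjusted over 30 trends). These are 3 of 8 genes; among 100-kb windows of the rest with 30 or more CpGs of the class, 7.02% lost methylation more slowly at an exact p below 0.05, and 3.96% of all such windows with 5 or more CpGs. No gene was called as losing it faster, as 6.82% of the larger windows and 4.24% of all windows did. Within the 5 deep libraries the differences were 0.0561 in UHRF1, 0.047 in DNMT1 and 0.0388 in DNMT3A, each at an exact permutation p of 0.0083. Expressed as halving times of a log-linear fit over the 8 days, UHRF1 took 3.61 days, DNMT1 3.55, DNMT3A 3.3 and the rest 2.83. These are fitted values and not observed times, since the loss began slowly. On day 3 the class in the rest still held 60.2% of its day 0 level. The DNMT3A call was lost when reads were pooled (adjusted p = 0.0603) and when 3 reads were asked for on each shallow day (adjusted p = 0.12, both by exact permutation).

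DNMT1 and UHRF1 both lie on chromosome 19, where the 468 windows with 30 or more such CpGs kept a median of 20.5% on day 7. Each of the pair kept a larger share than 99.8% of those windows did. Against the rest of their own chromosome, an alternative chosen after seeing the data, the differences were 0.0502 per day in UHRF1, 0.0466 in DNMT1 and 0.0348 in DNMT3A. DNMT1 was read more deeply than the other genes, with a median of 69 reads per matched CpG on day 0 against 52 over matched autosomal CpGs. Its most deeply read CpG had 516 reads on day 0, where the highest among the other genes was 288, in DNMT3L. Reads from an exogenous DNMT1 copy could be counted at DNMT1 exons; the files do not tell them apart, and their part in the result was not tested. A limit of 3 times the median depth, also chosen after seeing the data, left 106 of the 126 DNMT1 body CpGs, against 170 of 174 in UHRF1. Without the CpGs over it, the DNMT1 difference was 0.0557 per day, from 91 CpGs of the class.

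For DNMT3B (33 CpGs) the difference from the rest was 0.0287 ± 0.0222 per day and for TET1 (65 CpGs) 0.0218 ± 0.0109. TET3 (59 CpGs) stood at 0.0106 ± 0.007, DNMT3L (48 CpGs) at -0.0153 ± 0.0159 and TET2 (8 CpGs) at -0.0253 ± 0.03. Adjusted p in these 5 ranged from 0.143 to 0.492 (exact permutation). TET3 passed within the 5 deep libraries (0.0149 per day, adjusted p = 0.0139, exact permutation) and TET1 without day 5 (0.0216 per day, adjusted p = 0.0461, exact permutation). A missed threshold does not show that these 5 genes lost methylation like the rest. In order of rate from slowest to fastest, the genes ran UHRF1, DNMT1, DNMT3A, DNMT3B, TET1, TET3, DNMT3L and TET2. Pairs of neighbours in that order were set by the fitted rates, so they lie close by construction, and genes further apart were not compared. Over the 7 such pairs, none differed after adjustment, which does not show that the 8 genes shared a rate. The nearest was DNMT1 against DNMT3A, by 0.0147 ± 0.0034 per day (exact permutation p = 0.00774, adjusted 0.0542), and the other 6 had adjusted p of 0.725. A difference between the methyltransferase and TET genes as groups was not tested.

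**Figure D5:**
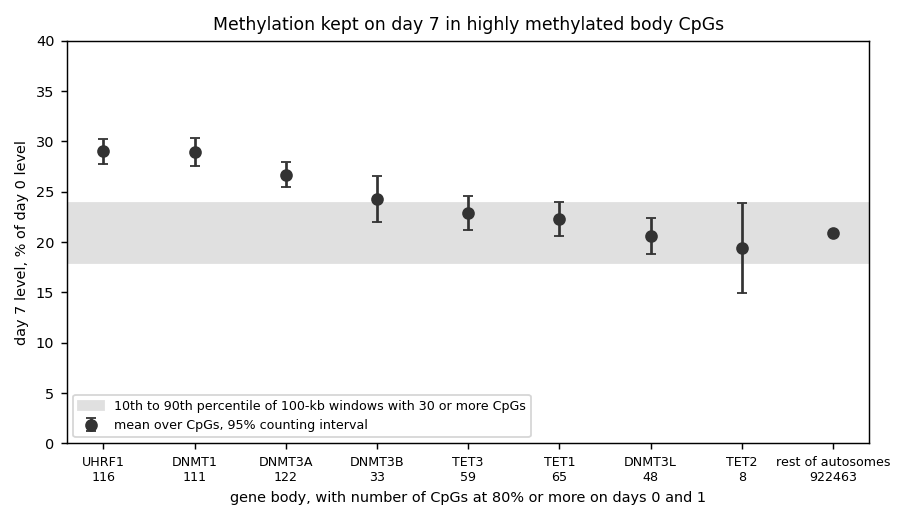
Day 7 level as a percentage of the day 0 level in body CpGs at 80% or more on days 0 and 1, by gene and in the rest of the autosomes, with 95% counting intervals; numbers under the names are CpGs. The grey band runs from the 10th to the 90th percentile of 100-kb windows with 30 or more such CpGs, 17.9% to 23.9%. UHRF1, DNMT1 and DNMT3A lie above it at 29%, 29% and 26.7%, and DNMT3B lies just above its edge at 24.3%, with an interval that reaches into it.

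Single CpGs within a body differed widely by day 7. In UHRF1 the class ran from 4.82% to 70.2% with a median of 25%, and in DNMT1 from 5.26% to 82.1% with a median of 24.1%. The quartiles were 17.1% and 32.7% in UHRF1, against 12.5% and 23.1% in the rest, whose median was 17.2%. The middle CpGs of UHRF1 and DNMT1, and not their means alone, thus stood above those of the rest.

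The same question was put to 1-kb tiles, each tested in a model fitted to all 203871 autosomal tiles (quasi-binomial regression on day with limma-moderated dispersion, adjusted p below 0.05). Of 138 tiles in the 8 windows, 124 fell, 0 rose and 14 were not called. Across all tiles 90.3% fell and 0.127% rose, so the members' 89.9% is near the background. Every one of the 72 member tiles that began at 80% or more fell, as did 100% of such tiles among all. Of 18 member tiles at 20% or less, 4 fell and 0 rose, where 35% of all such tiles fell and 0.85% rose. The 4 lay at the DNMT1 and DNMT3A starts, in the DNMT3A body and in the DNMT3L downstream flank.

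Member tiles were next compared with all autosomal tiles in how much stayed, and UHRF1 and DNMT1 gave the most retained ones. These tiles largely hold the CpGs of the rate comparison above, so they are not separate support for it. Tiles in the bodies of other genes were not compared. Of the 72 highly methylated member tiles, 24 (33.3%) lay above 27% in the pooled reads of days 6 and 7, the 90th percentile of all 83510 such tiles, which by construction 10% exceed. UHRF1 gave 9 of its 13 tiles, DNMT1 5 of 13, DNMT3A 4 of 17, DNMT3B and TET1 2 each of 6 and 9, and TET3 2 of 7. DNMT3L had 0 of 6 and TET2 0 of 1. The highest tile of UHRF1 (chr19:4956001-4957000, 12 CpGs, 46990 bp inside the gene) held 36.8% on days 6 and 7 (34.4 to 39.2%). Its course was 88.9%, 81.2%, 79.5%, 52.5%, 42%, 35.3%, 38.3% and 35% on days 0 to 7. The values of days 4 and 5 rest on 81 and 68 reads, and the tile was picked as the highest on days 6 and 7. A level late course thus cannot be told from a continued fall. The lowest UHRF1 tile (chr19:4945001-4946000, 7 CpGs) held 18.6%.

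DNMT1's highest tile (chr19:10250001-10251000, 15 CpGs) held 32.7% (30.7 to 34.9%) on days 6 and 7 and its lowest (chr19:10299001-10300000, 3 CpGs) 20.3%. DNMT3A spanned the widest range: 39.4% (34.5 to 44.4%) in chr2:25465001-25466000 and 10.5% (8.03 to 13.7%) in chr2:25555001-25556000. The high one, with 3 CpGs, ran 85.1%, 87.3%, 78.5%, 56.7%, 58.6%, 56%, 38.8% and 40% over days 0 to 7, and lies toward the gene's end, while the low one lies 9958 bp from its start. DNMT3B ranged from 16.3% (chr20:31368001-31369000) to 30.2% (chr20:31374001-31375000) and DNMT3L from 16.6% (chr21:45676001-45677000) to 20.7% (chr21:45678001-45679000). In TET1 the range was 18.7% (chr10:70354001-70355000) to 32.4% (chr10:70426001-70427000), and in TET3 18.8% (chr2:74289001-74290000) to 28.6% (chr2:74297001-74298000). The single TET2 tile (chr4:106080001-106081000) held 17.9%. All these tiles had fallen, with adjusted p from 1.07e-20 to 2.87e-11 (limma-moderated F test).

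Unmethylated stretches were runs of 10 or more adjacent CpGs at 20% or less in the pooled reads of days 0 and 1. They were sought among CpGs with 10 or more reads in every deep library, whatever their reads on days 3 to 5. Bodies were unequally read, with 308 matched CpGs in DNMT3A, 54 in DNMT3B and 19 in TET2, so some had little room for a stretch. DNMT3A was the one gene of the 8 with such stretches inside the body and away from its start. One of 28 CpGs (chr2:25474373-25475538, 89922 to 91086 bp inside the gene) had 0 of 1315 reads methylated on day 7 and 0 of 1384 on day 0; over the 8 days no more than 2 methylated reads were seen on any. The internal DNMT3A promoter printed above fell in this stretch, with its start site 90275 bp inside the span. Another of 21 CpGs (chr2:25500163-25500417) had 14 of 1255 reads methylated on day 7, or 1.12%, against 35 of 1552, or 2.26%, on day 0, and none of the RefSeq promoter entries was placed there. The stretch at the DNMT3A start was the longest, with 148 CpGs and 7 of 7193 reads methylated on day 7, against 8 of 6781 on day 0. Methylated DNA thus alternated with at least 3 unmethylated stretches along this gene, while UHRF1, DNMT3B, TET1 and TET2 had one each, at their starts.

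The flanks are given without a test. Downstream of DNMT3L, a stretch of 61 unmethylated CpGs (chr21:45661232-45662969) had 8 of 3328 reads methylated on day 7, or 0.24%, against 45 of 3881, or 1.16%, on day 0. ICOSLG is the neighbouring gene on that side in RefSeq order. Among the other flanks, the DNMT3L upstream flank (19 CpGs) averaged 15.7% on day 7, against 78.6% on day 0, the DNMT3A downstream flank (16 CpGs) 11.4% against 70.4%, and the DNMT3B downstream flank (13 CpGs) 17% against 83.6%. The flanks of the other genes held 0 to 10 matched CpGs a side. Whether a CpG lay in an exon, an intron or an untranslated region was not analysed here.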

How the data were processed

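Genomic DNA of 1 cell line was read by RRBS in 8 libraries, 1 per day. The deposited files give, per the file contents, methylated and total reads at each CpG, and a score that the authors deposited beside them equal to 1000 times the methylated share, rounded. The read counts were used and the score was read only as a check; it matched in 100% of lines. The build is hg19, per the submitters' processing notes; the sources used here name no aligner or methylation caller. Positions were joined across libraries and start at 1.

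Levels were means over matched CpGs (10 or more reads on days 0, 1, 2, 6 and 7, 1 or more on days 3 to 5) in regions with at least 5 of them. Trends were least-squares slopes on day with exact two-sided permutation of the days (40320 orders, or 120 for the 5 deep libraries), with Benjamini-Hochberg adjustment over 30 trends at 0.05. The natural log was taken of ratios to the rest. Tiles of 1 kb needed 3 or more CpGs and 10 or more reads in every library; their quasi-binomial dispersion was moderated with limma 3.58.1 in R 4.3.3. Other steps used Python 3.11.15, numpy 2.4.6 and pandas 2.3.3. Both steps were also run on simulated data, and the outcome of those runs is not given here. Background came from 100-kb and 2-kb windows and from tiles outside the genes, since no hg19 gene annotation was used here; for the same reason a planned list of other pathway genes was not run.

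All 8 genes are named. Tiles named are, in each body, the highest and lowest on days 6 and 7 among tiles at 80% or more on days 0 and 1. The first CpG at 50% or more on each side of the start is named for UHRF1, DNMT3A, DNMT3B, TET1 and TET2. So are the 6 CpGs of DNMT1, single CpGs before the starts of UHRF1 and DNMT3A and the unmethylated stretches, which were chosen after their values were seen. The members and lists were chosen with earlier results of these data known. Alternatives were read minimums, pooled reads, other widths and class limits, the 5 deep libraries alone and each day left out. An upper limit on depth and a comparison with the same chromosome were added after seeing the data.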

Additional observations from a re-analysis of the deposited data

How the results depend on the processing

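Under every alternative run, all 8 bodies were called as falling. The trend of the start-minus-body difference was called in the same 6 genes, except that a start of 500 bp left too few TET2 CpGs to test. The count of genes with another rate than the rest was 3 of 8 in most settings and 2 to 4 in all; leaving out 1 day gave 3 to 4. UHRF1 and DNMT1 were called under each of them, but the size of the DNMT1 difference depended on the weighting. From 0.0492 per day it went to 0.0352 with reads pooled (adjusted p = 0.0281). With 3 reads on days 3 to 5 it was 0.0402 (adjusted p = 0.0334, both by exact permutation). UHRF1 gave 0.0526 and 0.0484 in these settings. Pooled levels of the class on day 7 were 26.4% in UHRF1, 23.2% in DNMT1 and 18.3% in the rest. The count of start regions called was 2 of 7, but 1 with 3 reads on days 3 to 5, 1 with reads pooled, 1 of 6 with a start of 500 bp and 3 with a start of 2 kb, and it ran from 0 to 2 when days were left out, with 0 without day 0. The start of TET2 was called at a width of 2 kb (-1.57 points per day). Slopes of unmethylated starts changed sign. TET2, at -0.0027 points per day, gave 0.0383 with 5 reads, 0.00243 without day 0 and 0.0318 without day 1, the days left out giving -0.00511 to 0.0318. DNMT3B, at 0.0144, gave -0.0105 with 20 reads, -0.0149 with 3 reads on days 3 to 5, -0.00302 with reads pooled, -0.0106 in the 5 deep libraries, -0.0006 without day 0 and -0.0148 without day 4, the days left out giving -0.0148 to 0.0481. UHRF1, at -0.0644, gave 0.00714 with a start of 500 bp, and DNMT1, at -0.828, gave 0.000424 with 3 reads on days 3 to 5, which removes its methylated CpGs. Tiles called as falling numbered 124 of 138, and 81 of 83 at 5 kb, 67 of 81 with 5 CpGs and 20 reads, and 203 of 218 with 1 CpG and 1 read; these settings change the number of tiles. Leaving out 1 day gave 123 to 138. One tile rose with tiles of 500 bp and 1 without day 1, against 0 otherwise. No paired analysis was possible because each day has 1 library. Depth limits days 3 to 5, TET2 and the DNMT3L start.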

Other observations

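The part of the body nearer the gene's end held more of its methylation than the part nearer its start in some genes, with the body divided at its midpoint. This division was made after the values were seen and is given without a test. In UHRF1, highly methylated CpGs on the end side (78 CpGs) were left with 31.7% of the day 0 level by day 7, against 23.3% on the start side (38 CpGs). In DNMT3B the end side (14 CpGs) retained 28.8%, against 20.9% on the start side (19 CpGs), and in DNMT3A the end side (77 CpGs) retained 28%, against 24.4% (45 CpGs). On day 7 the sides differed little in DNMT1, at 29.1% from 94 CpGs on the end side and 28% from 17 on the start side. They also differed little in TET3, at 23% and 22.9%, and in TET1, at 22.1% from 37 CpGs and 22.7% from 28. By day 6 the end side had kept 32.9% against 28.7% in DNMT1, 30.5% against 26.8% in TET1, and 25.4% against 26% in TET3. DNMT3L had 22.1% from 10 CpGs on the end side, against 20.2% from 38, and TET2 had a single CpG on its end side.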
